A study of Homo sapiens with 3 samples.

Results

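VIM-high cells are the cells of the pancreatic cancer line BxPC-3 with the most vimentin transcript for their depth. Each cell was scored by its unique molecular identifiers (UMIs) of VIM per 10000 UMIs of the cell, and the top 5% of the pooled cells of 3 libraries were selected on that score, so VIM levels of these cells are descriptions and are not tested. This gave 282 VIM-high cells among 5640. The 3882 cells with 0 VIM UMIs (VIM-zero cells) were the comparison, and the 1476 cells with VIM below the limit of the top 5% are called the cells between. The label rests on VIM alone: markers of fibroblasts and endothelium were near 0 in the same cells, so the name says only how much VIM the cells held.

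VIM, on chromosome 10 at 17228259 to 17237593 of GRCh38, plus strand, encodes vimentin, a type III intermediate filament protein that assembles into a network from the nucleus to the cell edge. It is the main intermediate filament of mesenchymal cells, while epithelial cells build theirs mainly from keratins. Carcinoma cells that pass through an epithelial-mesenchymal transition (EMT) can gain vimentin while they lose cell junctions, and vimentin is also made by some epithelial cells in culture.

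BxPC-3 is an established human line of pancreatic ductal adenocarcinoma, a carcinoma of the exocrine pancreas. The study mixed cells that stably expressed EGFP with cells that stably expressed mCherry, in equal numbers, and kept them in suspension, where cells of epithelial lines can invade one another (entosis) and form cell-in-cell structures. The double-positive library held cells sorted for both fluorescent signals, the single-positive library held cells sorted for 1 of the 2 signals, and the parental library held the parental line. There was 1 library per group, made with a 10x Genomics 5' kit, and all cells were BxPC-3, so the 3 groups share the line. The sorted cells also expressed EGFP, mCherry or both, and the label of the parental library names neither. Between libraries, this cannot be told apart from the other differences in condition.

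The rule kept 1940 double-positive, 1291 single-positive and 2409 parental cells, whose median depths were 29964, 38137 and 23290 UMIs. The libraries held 62517276, 51637677 and 65107147 UMIs in all. Between 1 and 6 barcodes were shared by each pair of libraries, and 1 VIM-high cell carried such a barcode. Cells with under 0.5% mitochondrial UMIs were 6.19% of the double-positive, 21.8% of the single-positive and 31.8% of the parental library, and results without those cells are among the alternatives. No doublets were removed, because a sort for both colours selects pairs of cells.

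VIM was concentrated in few cells. VIM-high cells were 5% of all cells by the rule and held 4472 of the 8426 VIM UMIs. They carried 49.7% of the VIM UMIs of the double-positive cells, 62.6% of those of the single-positive cells and 40.4% of those of the parental cells. In counts per 1000000 UMIs (CPM), VIM stood at 511 (95% Poisson interval 481 to 543) in double-positive, 486 (467 to 505) in single-positive and 476 (446 to 507) in parental VIM-high cells. The same score limit chose the cells in all 3 libraries, so the rule bears on how close these values are. It also fixes that they lie above the 75.0, 84.9 and 76.9 CPM of the cells between. All intervals given here cover counting error only.

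A VIM-high cell held a median of 13 VIM UMIs (4 to 56) in the double-positive library, 19 (3 to 79) in the single-positive library and 8 (2 to 40) in the parental library. The last cells inside the limit had 2 VIM UMIs of 7382 and 4 of 14764, a score of 2.71 in both, and the first outside had 5 of 18471, a score of 2.707. The lowest members are therefore set apart by 1 or a few UMIs. The spread of VIM over all cells was wide for its level: after every cell was thinned to 6500 UMIs, the variance over the mean (Fano factor) was 3.08, 2.97 and 2.78 in double-positive, single-positive and parental cells. Genes with a mean level within 1.5-fold of that of VIM had median Fano factors of 1.05, 1.08 and 1.05, and only 13 of 2177, 19 of 1576 and 15 of 2021 of them lay above VIM.

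**Figure D1:**
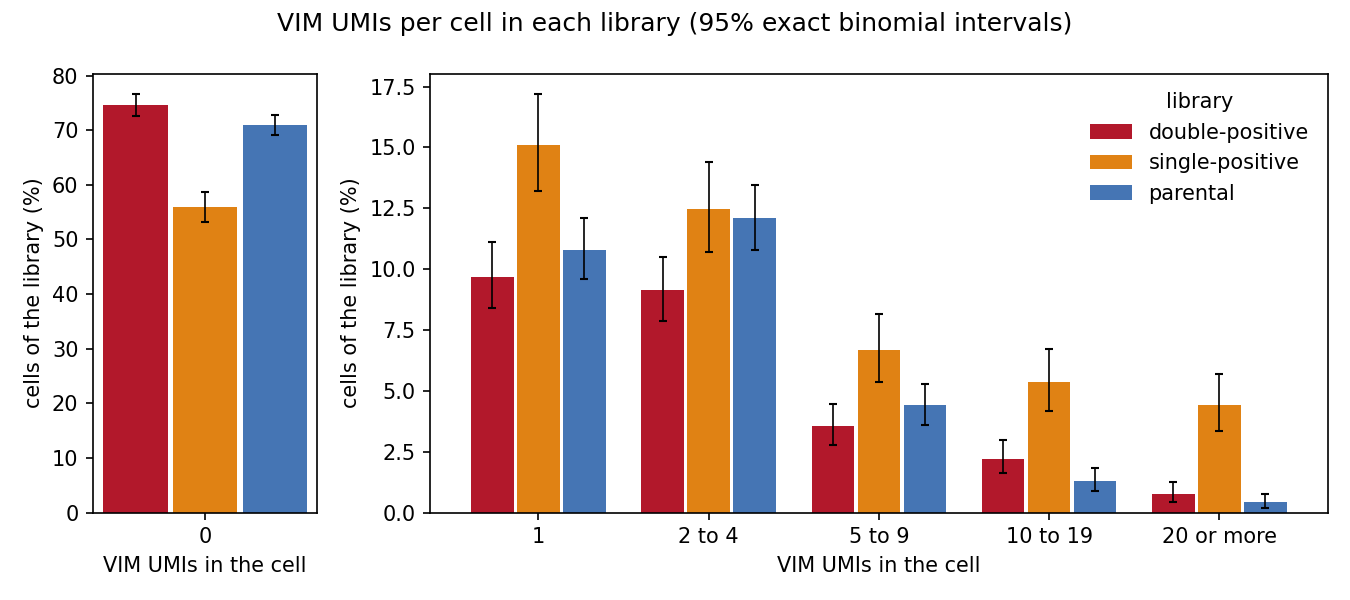
Share of the cells of each library (%) by the number of VIM UMIs in the cell, with 95% exact binomial intervals. VIM-zero cells made up 74.6% of double-positive, 56.0% of single-positive and 71.0% of parental cells, and cells with 20 or more VIM UMIs 0.773%, 4.42% and 0.415%.

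To read VIM in UMIs that had not chosen the cells, the UMIs of each cell were divided at random into 2 sets, the top 5% were taken on 1 set and VIM was read in the other. In that second set VIM stood at 467, 438 and 357 CPM in the cells chosen as high in the double-positive, single-positive and parental libraries, against 6.51, 10.5 and 12.2 CPM in the cells with no VIM UMI in the first set. For the cells chosen as high, the parental 95% Poisson interval (321 to 396) lay below those of double-positive (425 to 511) and single-positive cells (413 to 465). At least 1 VIM UMI was present in the second set of 254 of the 282 cells chosen as high (90.1%) and of 440 of 4322 chosen as zero (10.2%). Barcodes with 100 UMIs or fewer, which hold mostly free RNA, had VIM at 33.2, 62.0 and 65.8 CPM in the same order of libraries, against 35.0, 77.5 and 37.3 CPM over all cells of the same libraries, so the parental barcodes lay above the parental cells and below the parental VIM-high cells.

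VIM-high cells made up a larger share of the single-positive library than of the other 2 libraries. They were 69 of 1940 double-positive cells, or 3.56% (95% Clopper-Pearson interval 2.78 to 4.48%). They were 115 of 1291 single-positive cells, or 8.91% (7.41 to 10.6%). They were 98 of 2409 parental cells, or 4.07% (3.31 to 4.94%). The single-positive interval does not overlap the others, and the double-positive and parental intervals overlap. With 1 library per group these intervals compare 3 libraries and not the conditions, so no p-value is given.

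The order of the libraries remained when each cell was thinned to 6500 UMIs, where 5.26% of double-positive, 11.1% of single-positive and 5.89% of parental cells were VIM-high and 87.7%, 75.0% and 84.8% were VIM-zero. Ties in the thinned score put 387 cells in the top group in place of 282. Depth moved with the share in a different way in each library. Among parental cells the share was 7.95% at 6500 to under 15000 UMIs, 4.39% at 15000 to under 25000, 2.84% at 25000 to under 40000 and 1.35% at 40000 or more. Among single-positive cells the shares in the same bands ran the other way, at 3.98%, 4.81%, 8.65% and 11.9%. Among double-positive cells they were 2.11%, 2.69%, 5.17% and 1.65%. The single-positive interval lay above both others only in the band of 40000 UMIs or more, and above the parental interval alone at 25000 to under 40000. The part of depth in the difference between libraries was not tested.

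**Figure D2:**
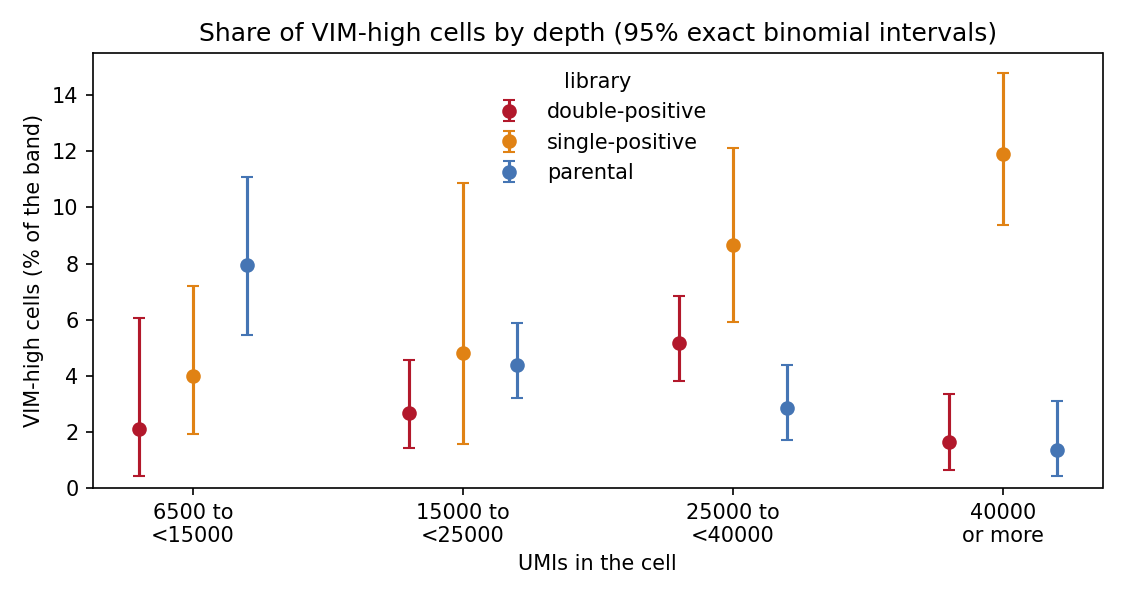
VIM-high cells as a share (%) of the cells in 4 bands of UMIs per cell, for each library, with 95% exact binomial intervals. The single-positive share reaches 11.9% in the deepest band, while the parental share falls with depth to 1.35%.

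In size and complexity VIM-high cells were much like VIM-zero cells. Their median depth was 30134, 43979 and 20730 UMIs in the double-positive, single-positive and parental libraries, against 29149, 37671 and 22398 UMIs in VIM-zero cells. At 6500 UMIs per cell the median number of genes was 2388, 2420 and 2404 in VIM-high and 2384, 2416 and 2370 in VIM-zero cells. Mitochondrial UMIs were a median of 2.12%, 1.07% and 1.49% in VIM-high cells and of 2.12%, 1.32% and 0.994% in VIM-zero cells, so the direction was not shared by the libraries.

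Cell cycle phases, called from S and G2M gene scores, differed between VIM-high and VIM-zero cells in the same direction in all 3 libraries. The 95% exact intervals of these classes overlapped for every phase in double-positive cells, and for S and G2M in the other libraries. They lay apart for G1 in single-positive (20.6 to 37.9% against 39.8 to 47.1%) and parental cells (26.3 to 46.0% against 48.9 to 53.7%). VIM-high cells were called G1 in 37.7%, 28.7% and 35.7% of double-positive, single-positive and parental cells, against 46.9%, 43.4% and 51.3% of VIM-zero cells. S was called in 23.2%, 20.9% and 21.4% of VIM-high and 17.1%, 16.3% and 13.4% of VIM-zero cells, and G2M in 39.1%, 50.4% and 42.9% of VIM-high and 36.0%, 40.2% and 35.4% of VIM-zero cells. In the cells between, G2M was called in 50.1%, 52.98% and 48%, above the VIM-high cells of each library, and S in 16.3%, 17.4% and 19%, below them. G1 was called in 33.6%, 29.6% and 33% of the cells between, below VIM-zero cells in each library. Fewer G1 and more G2M calls than in VIM-zero cells were therefore not particular to VIM-high cells. An exact permutation test over 3 pairs of values cannot give a p under 0.25, so these shares are descriptions. Matching the VIM-zero cells on depth and phase is one of the alternatives for the gene results.

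Other genes were tested between the classes on UMIs summed over the cells of each class in each library, which gave 6 sums, with edgeR's quasi-likelihood test and the library as a block. VIM was left out, since it chose the cells. Of 7702 genes that averaged 10 CPM or more over the sums, 919 were higher in VIM-high cells (11.9%) and 1007 lower (13.1%) at a Benjamini-Hochberg adjusted p of 0.05, 25.0% in all. Their direction was shared by all 3 libraries for 906 of the higher and 989 of the lower genes. The p-values measure the spread among 3 libraries that also differ in condition, not among replicate cultures. The higher genes moved little: 45 were at least 2-fold higher and none reached 4-fold, with a largest log2 fold change of 1.83. Lower genes went further, with 126 at least 2-fold, 45 at least 4-fold and 17 at least 8-fold lower. The median log2 fold change over all 7702 genes was -0.001.

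**Figure D3:**
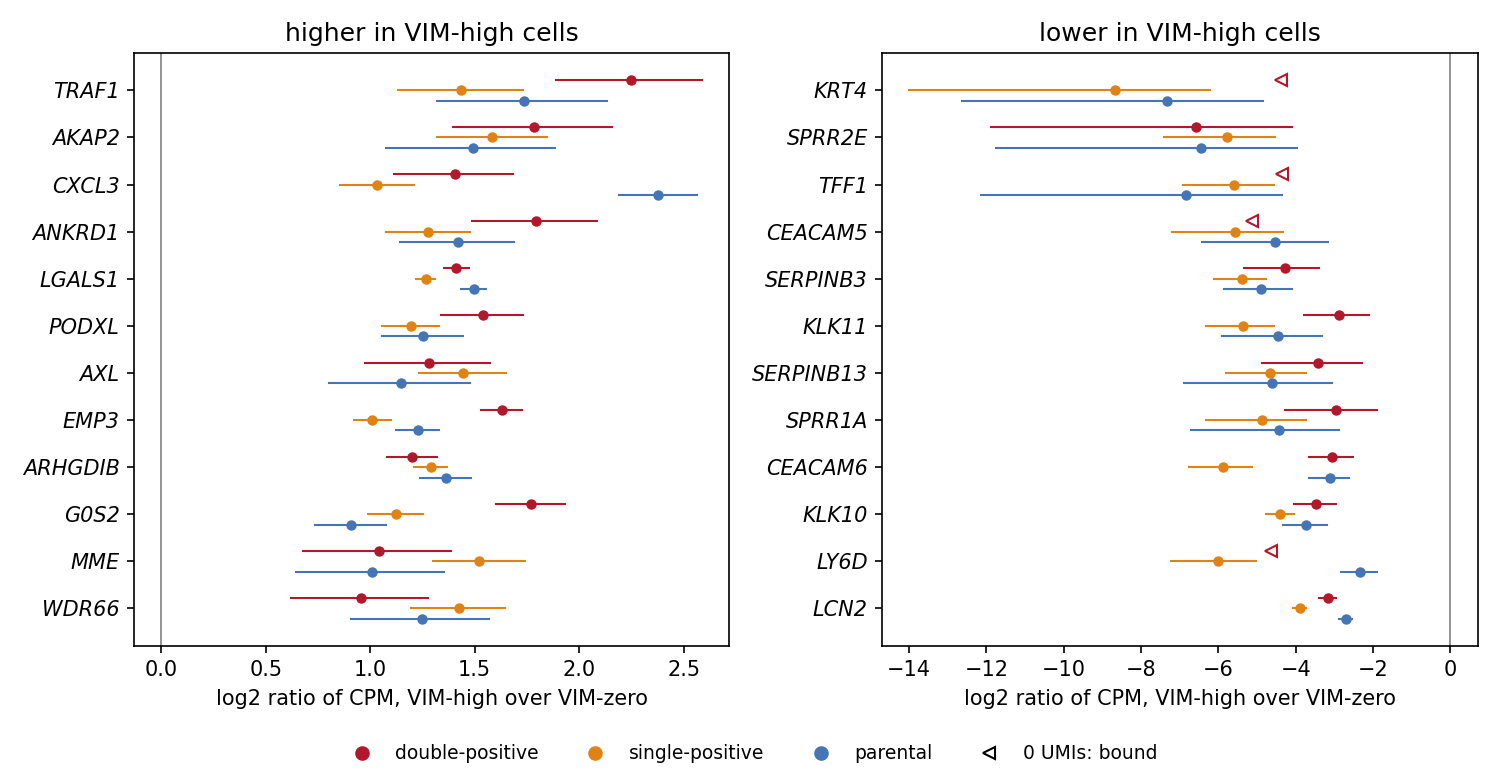
Log2 ratio of CPM in VIM-high over VIM-zero cells in each library, with 95% exact conditional intervals, for the 12 called genes with the highest and the 12 with the lowest fold that met the naming rule. Open triangles mark libraries with 0 UMIs in VIM-high cells, drawn at the bound given by a floor of 3 UMIs. The naming rule requires that every point lies on the same side of 0 as the others of its gene.

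The genes that rose most with VIM included several known from mesenchymal and motile cells. LGALS1, galectin-1, a secreted lectin of stroma and EMT, stood at 1183, 1040.2 and 1222 CPM in double-positive, single-positive and parental VIM-high cells, against 445, 433 and 433 CPM in VIM-zero cells. Each VIM-high sum lay above each VIM-zero sum, and the log2 fold change was 1.37 ± 0.05 (SE, 3 libraries; edgeR adjusted p = 5.12e-09). ARHGDIB, a GDP-dissociation inhibitor best known from blood cells, stood at 293, 382 and 299 CPM in VIM-high cells, against 127, 156 and 116 CPM in VIM-zero cells. Its log2 fold change was 1.27 ± 0.05 (edgeR adjusted p = 1.71e-08).

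EMP3, a small membrane glycoprotein linked to mesenchymal states, had 468, 283 and 411 CPM in VIM-high cells, against 151, 141 and 175 CPM in VIM-zero cells. AXL, a receptor tyrosine kinase associated with EMT and drug resistance, had 50.4, 57.1 and 40.6 CPM, against 20.8, 21.0 and 18.3 CPM. For both, every VIM-high sum lay above every VIM-zero sum, and the log2 fold changes were 1.27 ± 0.09 and 1.30 ± 0.10 (edgeR adjusted p = 1.4e-06 and 1.77e-06). PODXL, podocalyxin, a sialomucin of the cell surface, had 116, 122.6 and 122 CPM in VIM-high cells, against 40.0, 53.6 and 51.1 CPM in VIM-zero cells. MME, the surface peptidase neprilysin, had 35.6, 51.4 and 36.7 CPM in VIM-high cells, against 17.3, 17.9 and 18.2 CPM in VIM-zero cells.

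Of 37 genes listed as mesenchymal or EMT genes, 23 passed the filter on low counts. Of these 15 rose, 2 fell and 6 did not pass the test, with a median log2 fold change of 0.50. This count and those of the later lists stand beside 11.9% of all genes higher and 13.1% lower. Among the 15 were TAGLN, the actin-binding protein transgelin, at 1.10, the collagenase MMP1 at 0.84, the fibronectin receptor subunit ITGA5 at 0.70, the hyaluronan receptor CD44 at 0.58 and thrombospondin-1, THBS1, at 0.56. FN1, fibronectin, did not pass, at 11.05, 8.73 and 14.4 CPM in VIM-high cells, against 11.7, 8.86 and 8.01 CPM in VIM-zero cells (edgeR adjusted p = 0.511).

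S100A4, a calcium-binding protein often used as a mesenchymal marker, went the other way. It had 29, 22 and 7 UMIs in VIM-high cells, or 13.9, 4.36 and 3.47 CPM in the double-positive, single-positive and parental libraries, against 16.9, 29.3 and 29.6 CPM in VIM-zero cells. Its log2 fold change was -1.998 ± 0.35 (edgeR adjusted p = 0.0015), with -0.28 in the double-positive library, where 14 of the 29 UMIs came from 1 cell, and -2.74 and -3.09 in the single-positive and parental libraries. Without the double-positive library it was -2.86, and without the single-positive library -1.39. The VIM-high sums of S100A4 averaged under 10 CPM, so it passed the filter on low counts through VIM-zero cells. Of 12 EMT transcription factors only 2 passed the filter. SNAI2, a repressor of epithelial genes, rose slightly, with 142, 165 and 172 CPM in VIM-high cells, against 135, 139 and 127 CPM in VIM-zero cells (log2 fold change 0.24 ± 0.07, edgeR adjusted p = 0.0271), a call lost under 6 of 18 alternatives, among them the fit without the parental library (0.16, edgeR adjusted p = 0.252) and that with VIM-zero cells matched on UMIs and phase (0.16, edgeR adjusted p = 0.395). ZEB1, another such repressor, was under the filter, at 1.92, 1.79 and 2.48 CPM in VIM-high cells, against 0.581, 0.567 and 0.577 CPM in VIM-zero cells, and has no test. None of 9 other type III and IV intermediate filament genes passed the filter, so none has a test. NES, nestin, had 4.32, 3.37 and 4.96 CPM in VIM-high cells, against 4.25, 5.11 and 3.35 CPM in VIM-zero cells.

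Some of the largest rises came from genes of inflammatory signalling that were carried by a minority of the cells. TRAF1, an adaptor of TNF receptor signalling, had 40.8, 28.0 and 29.7 CPM in VIM-high cells, against 8.61, 10.4 and 8.93 CPM in VIM-zero cells (log2 fold change 1.76 ± 0.15, edgeR adjusted p = 7.33e-06). The VIM-zero sums of TRAF1 averaged under 10 CPM, so it passed the filter on low counts through VIM-high cells. It was present in 30 of 69, 49 of 115 and 25 of 98 VIM-high cells, and in the parental library 1 cell held 27 of its 60 UMIs. CXCL3, a neutrophil chemokine, had 56.2, 70.8 and 146 CPM in VIM-high cells, against 21.2, 34.6 and 28.1 CPM in VIM-zero cells (1.59 ± 0.19, edgeR adjusted p = 9.99e-05). In the parental library 1 cell held 219 of the 295 CXCL3 UMIs, and without it the level was 38.1 CPM. CXCL3 has close relatives in CXCL1 and CXCL2, among which short reads can be split. Of 21 NF-kB and cytokine genes tested, 8 rose, TRAF1 among them, and 3 fell, with a median of 0.08. NFKB2, the p100 precursor, rose by 0.62, and TNFAIP2 had -1.71. Over all genes 11.9% were higher and 13.1% lower, and the share of this list that fell was close to the latter.

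ANKRD1, a nuclear ankyrin-repeat protein and a classical target of YAP and TEAD, the effectors of the Hippo pathway, had 52.4, 58.1 and 62.9 CPM in VIM-high cells, against 15.1, 24.0 and 23.5 CPM in VIM-zero cells. Its log2 fold change was 1.45 ± 0.11 (edgeR adjusted p = 1.76e-06). Of 17 YAP and TEAD targets tested, 10 rose and 1 fell, with a median of 0.35. NT5E, the ectonucleotidase CD73, rose by 0.76, CYR61 by 0.50 and CTGF by 0.26, while MYOF had -0.34. G0S2, an inhibitor of triglyceride breakdown, had 167, 134 and 153 CPM in VIM-high cells, against 49.0, 61.6 and 81.4 CPM in VIM-zero cells. INHBA, the activin subunit, had 126, 141 and 154 CPM, against 63.0, 66.1 and 71.3 CPM. TGFBR2, a TGF-beta receptor, rose by 0.71 and ID1, a target of BMP signalling, had -0.95, and of 15 TGF-beta targets tested 5 rose and 4 fell. The remaining 2 of the 12 highest were AKAP2, a kinase anchor that overlaps the PALM2-AKAP2 gene and may share its reads, and WDR66, a ciliary protein, with log2 fold changes of 1.60 and 1.22.

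The deepest falls were in genes of squamous differentiation and of mucosal secretion. KRT4, a keratin of stratified mucosa on chromosome 12, had 0, 1 and 1 UMIs in the 69, 115 and 98 VIM-high cells of the double-positive, single-positive and parental libraries, against 1346, 2302 and 3447 UMIs (30.1, 81.6 and 79.5 CPM) in VIM-zero cells. It was at least 20.9-fold lower in double-positive VIM-high cells by a floor of 3 UMIs in that class. VIM-zero over VIM-high ratios were 411 (95% interval 73.8 to 16258) in the single-positive and 160.5 (28.8 to 6341) in the parental library. The edgeR adjusted p was 1.43e-09, and its fitted fold depends on the prior count.

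TFF1, a trefoil peptide of gastric mucus, had 0, 7 and 1 UMIs in VIM-high cells, against 29.4, 67.2 and 56.2 CPM in VIM-zero cells (edgeR adjusted p = 8.59e-09). CEACAM5, the carcinoembryonic antigen, had 0, 5 and 4 UMIs, against 50.3, 47.0 and 46.0 CPM (edgeR adjusted p = 3.51e-08). In double-positive VIM-high cells these genes were at least 20.4-fold and 34.9-fold lower. SPRR2E, a cornified envelope protein, had 1, 5 and 1 UMIs in VIM-high cells, against 45.9, 54.3 and 43.1 CPM in VIM-zero cells. LY6D, a surface protein of stratified epithelia, had 0, 8 and 39 UMIs in VIM-high cells, against 36.2, 102 and 97.9 CPM in VIM-zero cells. All 39 of its parental UMIs came from 1 cell, and its log2 fold change of -4.01 (edgeR adjusted p = 2.84e-05) was -6.22 without the parental and -2.86 without the single-positive library. Only a minority of VIM-zero cells held LY6D: 269 of 1448 double-positive, 261 of 723 single-positive and 464 of 1711 parental cells.

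Of the 12 genes of lowest fold, SERPINB3, KLK10 and LCN2 fell in every library at higher levels. SERPINB3, a squamous cell serpin, had 4.80, 3.97 and 5.95 CPM in VIM-high cells, against 93.4, 167 and 178 CPM in VIM-zero cells, a log2 fold change of -5.04 ± 0.15 (edgeR adjusted p = 1.12e-09). KLK10, a kallikrein-related peptidase of squamous epithelium, had 14.4, 12.9 and 13.4 CPM, against 160, 272 and 178 CPM (-4.03 ± 0.13, edgeR adjusted p = 3.15e-09). LCN2, lipocalin-2, an antimicrobial siderophore-binding protein, had 75.9, 61.1 and 136 CPM in VIM-high cells, against 685, 909 and 887 CPM in VIM-zero cells (-3.30 ± 0.16, edgeR adjusted p = 4.55e-08). No VIM-high sum of these 3 genes reached any VIM-zero sum. CEACAM6, KLK11, SERPINB13 and SPRR1A completed the 12, with log2 fold changes between -4.50 and -4.06, of which KLK11 was -5.12 without the double-positive library and KLK11, SPRR1A and CEACAM6 were -3.59, -3.58 and -3.11 without the single-positive library. SPRR2E, SERPINB3, CXCL3 and CEACAM genes belong to families of closely related copies, so the split of reads within a family is uncertain.

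Of 33 basal-like and squamous genes 23 were tested, of which 18 fell and 2 rose, with a median of -1.08. Of 23 genes listed as classical subtype or secretory, 6 were tested and 5 fell, with a median of -2.95, the exception being GATA6, a transcription factor of the classical subtype, at -0.37. The fitted folds of TFF1 and CEACAM5, with a library at 0 UMIs, are not bounds, and the median lies between 2 other genes. Both genes were under 10 CPM in every VIM-high sum and passed the filter through VIM-zero cells. KRT4, SERPINB3 and SPRR1A of the squamous list did likewise, as did SPRR2E, KLK11 and SERPINB13, which are on neither list. LY6D of the squamous list averaged under 10 CPM over its VIM-high sums, so it too was admitted through VIM-zero cells. The counts and medians of both lists therefore depend in part on how members were admitted. The 2 that rose in the squamous list were KRT5, the basal keratin, and TNS4, a tensin of focal adhesions, at 0.58 and 0.47. KRT5 had 1305, 1207 and 998 CPM in VIM-high cells, against 776, 847 and 692 CPM in VIM-zero cells, while KRT13, the suprabasal keratin of mucosa, had 76.4, 271 and 207 CPM in VIM-high cells, against 852, 1209 and 1151 CPM in VIM-zero cells, a log2 fold change of -2.61. TP63, the transcription factor of basal squamous cells, did not pass, at 0.16.

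Junction genes fell less. CLDN4, a tight junction claudin, had 67.3, 55.4 and 93.7 CPM in VIM-high cells, against 295, 261 and 310 CPM in VIM-zero cells (-2.06 ± 0.09, edgeR adjusted p = 1.71e-08). CDH1, E-cadherin, the main adhesion molecule of epithelial junctions, had 56.2, 48.8 and 50.5 CPM, against 89.8, 83.3 and 78.5 CPM (-0.72 ± 0.08, edgeR adjusted p = 4.61e-05). CLDN7 stood at -1.16 and the tight junction protein OCLN at -2.22, and ELF3, an epithelial transcription factor, at -2.89. Of 33 keratins and junction genes tested, 23 fell and 3 rose, with a median of -0.47. EPCAM, at -0.14, and KRT18, at -0.05, did not pass, and KRT8 fell by 0.16. Of 9 epithelial markers 6 fell and none rose, and their summed level was 6748, 7157 and 7347 CPM in VIM-high cells, against 8416, 9502 and 9014 CPM in VIM-zero cells, so the VIM-high cells still carried the epithelial markers.

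**Figure D4:**
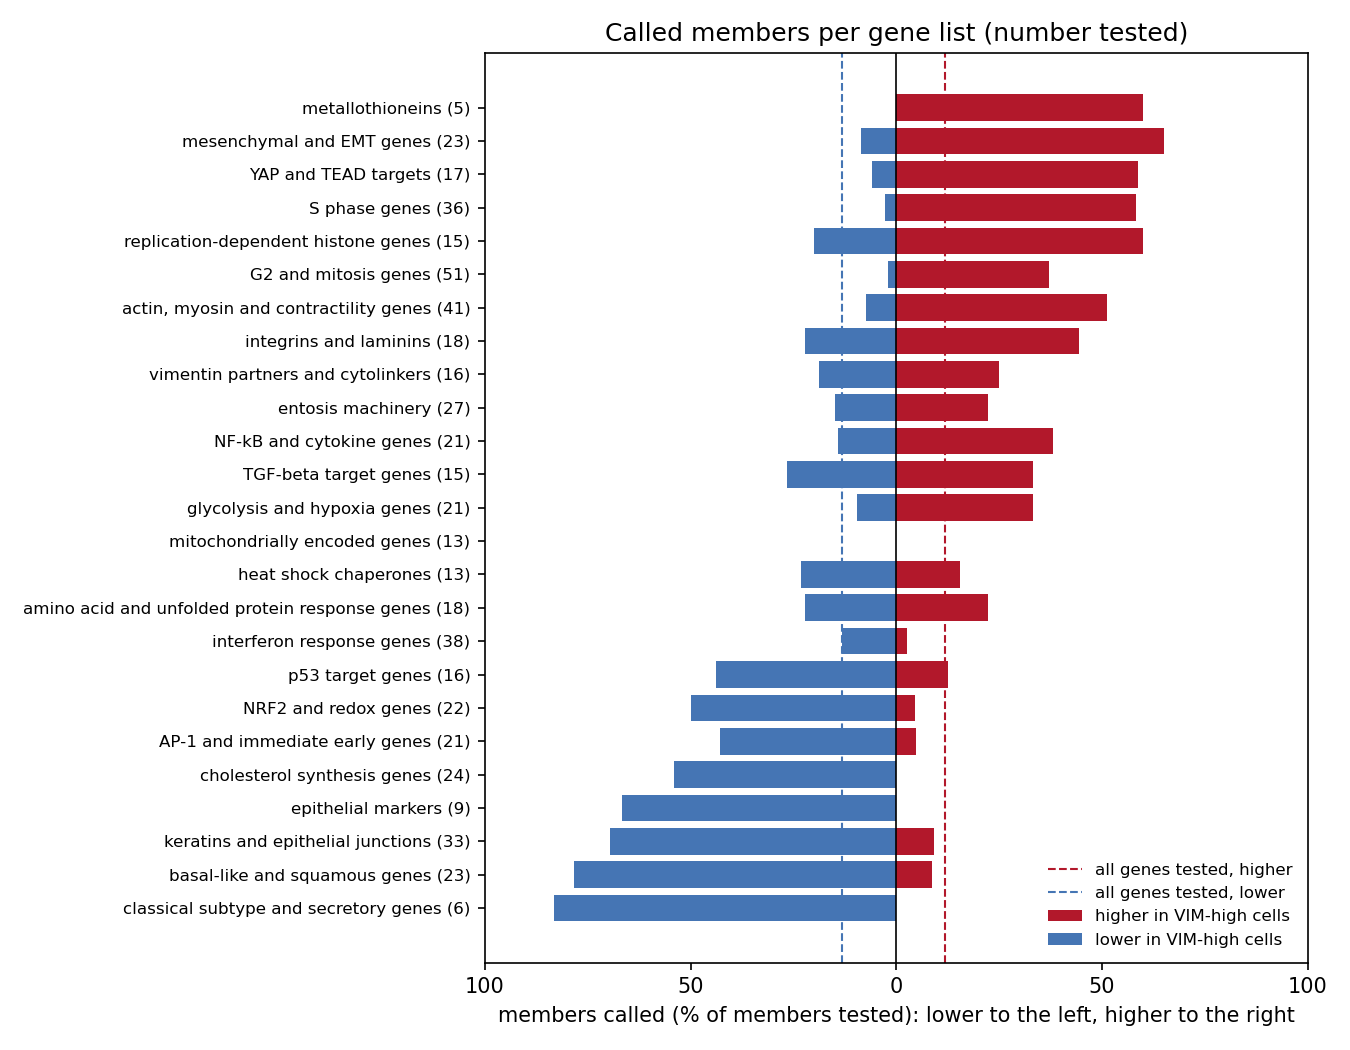
Members called lower (left) or higher (right) in VIM-high cells, as a share (%) of the members tested, for each gene list with at least 5 members tested. Dashed lines mark the shares over all genes tested, 13.1% lower and 11.9% higher.

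The cytoskeleton lists leaned the other way. Of 41 actin, myosin and contractility genes tested, 21 rose and 3 fell, with a median of 0.16. MSN, moesin, which links actin to the membrane, had 319, 366 and 296 CPM in VIM-high cells, against 155, 186 and 161 CPM in VIM-zero cells (0.95 ± 0.05, edgeR adjusted p = 1.89e-07), whereas ezrin, EZR, of the same family, had -0.33 and radixin, RDX, did not pass at 0.03. ACTN1, alpha-actinin-1, rose by 0.69. Of 18 integrins and laminins tested, 8 rose and 4 fell. ITGB6, an integrin subunit of epithelial cells, had a log2 fold change of -0.65, a call lost under 9 of 18 alternatives, among them the fit without the single-positive library (-0.19, edgeR adjusted p = 0.621) and that with cells matched on UMIs and phase (-0.55, edgeR adjusted p = 0.231).

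For the machinery of entosis the list was mixed. Of 27 genes tested, 6 rose, among them MSN, CD44 and ITGB1, and 4 fell, CDH1, CTNND1, EZR and RAC1, with a median of 0.10. Over all genes 11.9% were higher and 13.1% lower, and the share of entosis genes that fell was close to the latter. RHOA, ROCK1 and the light chain genes MYL12A, MYL12B and MYL9, which drive the contraction of the inner cell, lay between 0.07 and 0.24 and did not pass. In the contractility list the myosin heavy chain MYH9 was called higher, at 0.25, and so was the light chain MYL6, at 0.21. Of 16 known partners and linkers of vimentin tested, 4 rose and 3 fell. DST, a cytolinker of the plakin family, rose by 0.65, AURKB, a mitotic kinase that phosphorylates vimentin, by 0.64 and FLNA, filamin A, by 0.41, while PLEC, plectin, which ties intermediate filaments together, fell by 0.26.

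Cell cycle genes were higher by small steps. Of 36 S phase genes tested, 21 rose and 1 fell, with a median of 0.34, and DTL, a substrate receptor of replication-coupled degradation, had 30.7, 29.8 and 26.8 CPM in VIM-high cells, against 18.3, 16.5 and 15.3 CPM in VIM-zero cells. Of 51 G2 and mitosis genes, 19 rose and 1 fell, with a median of 0.25. MKI67, the proliferation antigen Ki-67, had 127, 211 and 136 CPM in VIM-high cells, against 124, 134 and 110 CPM in VIM-zero cells (0.34 ± 0.10, edgeR adjusted p = 0.0214). The shares of cells in each phase moved with these genes. Against 282 VIM-zero cells matched on UMIs alone, 3 S phase genes rose, with a median of 0.20, and 16 G2 and mitosis genes rose, with a median of 0.35. Against 282 VIM-zero cells matched on UMIs and phase, 1 S phase gene rose and 1 fell, with a median of 0.08, and 1 G2 and mitosis gene rose, with a median of 0.02. Phases are called from such genes, so that match uses part of these lists, and both fits use fewer VIM-zero cells. Over all genes, 467 of 7710 were higher and 576 lower when matched on UMIs. When matched on UMIs and phase, 423 of 7706 were higher and 520 lower. The share of S phase genes that rose when matched on UMIs was close to that of all genes in that fit. MKI67 had 0.10 in the fit matched on both (edgeR adjusted p = 0.55) and lost its call under 5 of 18 alternatives, with 0.15 without the single-positive library (edgeR adjusted p = 0.187). In the same fit the squamous list had 17 lower and 2 higher genes and the mesenchymal list 16 higher and 2 lower.

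In several stress and metabolism lists more genes fell than rose. Of 22 NRF2 and redox genes tested, 11 fell and 1 rose, and AKR1C2, an aldo-keto reductase with close paralogs, had -1.29. Of 24 cholesterol synthesis genes, 13 fell and none rose, with a median of -0.30, and SQLE, squalene epoxidase, had 81.7, 87.3 and 80.3 CPM in VIM-high cells, against 124, 170 and 148 CPM in VIM-zero cells. Of 16 p53 targets, 7 fell and 2 rose: GDF15, a stress-induced secreted factor, had 31.2, 39.9 and 62.4 CPM in VIM-high cells, against 246, 229 and 286 CPM in VIM-zero cells. Of 21 AP-1 and immediate early genes, 9 fell and 1 rose, with JUNB at -0.70. These counts stand beside 13.1% of all genes lower.

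Metallothioneins, small proteins that bind zinc and copper, were an exception. MT2A, among the most abundant transcripts, had 11447, 13096 and 12097 CPM in VIM-high cells, against 6424, 6953 and 6838 CPM in VIM-zero cells (0.84 ± 0.04, edgeR adjusted p = 1.82e-08). MT1E rose by 0.52 and MT1F by 0.54, 3 of 5 members tested in all. Of 21 glycolysis and hypoxia genes, 7 rose and 2 fell, with ENO1, enolase, at 0.35. None of the 13 mitochondrially encoded genes passed, with a median of 0.01, and of 38 interferon response genes 1 rose and 5 fell. Of 13 heat shock chaperones 2 rose and 3 fell, of 18 amino acid and unfolded protein response genes 4 rose and 4 fell, and of 15 replication-dependent histone genes 9 rose and 3 fell, against 5 and 2 with cells matched on UMIs and none and 3 with cells matched on UMIs and phase. By comparison, 11.9% of all genes were higher and 13.1% lower. The interferon response genes that fell and the chaperones that rose were close to those shares. With cells matched on UMIs, 467 of 7710 genes were higher and 576 lower, and with cells matched on UMIs and phase, 423 of 7706 were higher and 520 lower.

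Markers of other cell types that express vimentin were close to 0. The summed level of 11 fibroblast markers was 7.21, 6.35 and 7.93 CPM in double-positive, single-positive and parental VIM-high cells, against 5.14, 4.36 and 5.19 CPM in VIM-zero cells, and none passed the filter. COL1A1, a collagen that defines fibroblasts, had 3.84, 1.98 and 2.48 CPM in VIM-high cells, against 1.99, 1.74 and 2.10 CPM in VIM-zero cells. The 8 endothelial markers summed to 1.44, 0.198 and 0 CPM in VIM-high cells, and 6 of them, PECAM1 and VWF included, had 0 UMIs in VIM-high cells of all 3 libraries. Among the fibroblast markers 5 were at 0 UMIs there, COL1A2, DCN, LUM, PDGFRB and THY1. The 10 immune markers together reached 28.3, 25.4 and 32.2 CPM in VIM-high cells, and CD68, a lysosomal protein also made outside macrophages, accounted for 25.5, 23.2 and 28.7 CPM of this and fell by 0.44. Of 10 neural and endocrine markers 2 passed the filter and both rose: TUBB3, a neuronal tubulin also made by carcinoma lines, had 73.5, 88.9 and 85.2 CPM in VIM-high cells, against 42.1, 47.8 and 46.5 CPM in VIM-zero cells, and MBP rose by 0.35. Acinar markers summed to 1.92, 1.79 and 2.97 CPM in VIM-high cells, and HBG2, the 1 erythroid marker tested, did not pass, at -0.03.

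Most single VIM-high cells shared several of the main changes. LGALS1 lay above the median of the VIM-zero cells of the same library in 256 of 282 VIM-high cells (90.8%), MT2A in 260 (92.2%), EMP3 in 251 (89.0%) and ARHGDIB in 249 (88.3%). The summed mesenchymal list without VIM did so in 267 cells (94.7%). KRT13 was above that median in only 22 cells (7.80%) and LCN2 in 36 (12.8%). SERPINB3 was above it in 30 (10.6%), but that median was 0 in the double-positive and parental libraries. SERPINB3 had 0 UMIs in 91.3%, 86.1% and 90.8% of double-positive, single-positive and parental VIM-high cells, against 59.2%, 49.4% and 55.6% of VIM-zero cells. For CXCL3 and TRAF1 that median was 0 in every library, so the 116 (41.1%) and 104 (36.9%) cells above it were those with any UMI. CXCL3 was present in 27 of 69 double-positive, 54 of 115 single-positive and 35 of 98 parental VIM-high cells. In VIM-zero cells it was present in 269 of 1448, 157 of 723 and 293 of 1711. TRAF1 was present in 30, 49 and 25 of the same VIM-high cells, against 167, 119 and 185 of the VIM-zero cells. Both genes were thus found in a larger share of VIM-high cells, but in a minority of them.

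The overlap between single cells of the classes was still wide. The median VIM-high cell held 11.3, 9.84 and 11.5 LGALS1 UMIs per 10000 in the double-positive, single-positive and parental libraries, while the median VIM-zero cell held 3.26, 3.76 and 2.99. The 90th percentile of the VIM-zero cells was 11.4, 10.8 and 11.03, close to the median of the VIM-high cells in each library.

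Cells with some VIM were placed between the extremes. The cells between were divided at their median score of 0.688, which gave 4 steps with the VIM-zero and VIM-high cells at the ends. Of the 12 highest genes, 11 rose at every step in each library and 10 did so in all 3, the exceptions being CXCL3 in the double-positive and single-positive libraries and G0S2 in the parental library. Of the 12 lowest, 8 fell at every step in the double-positive, 6 in the single-positive and 10 in the parental library. CLDN4, for example, stood at 295, 154, 87.04 and 67.3 CPM over the 4 steps in double-positive cells. A cell with few VIM UMIs may lie in a lower class through sampling alone, and how much this blurs the steps was not tested.

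**Figure D5:**
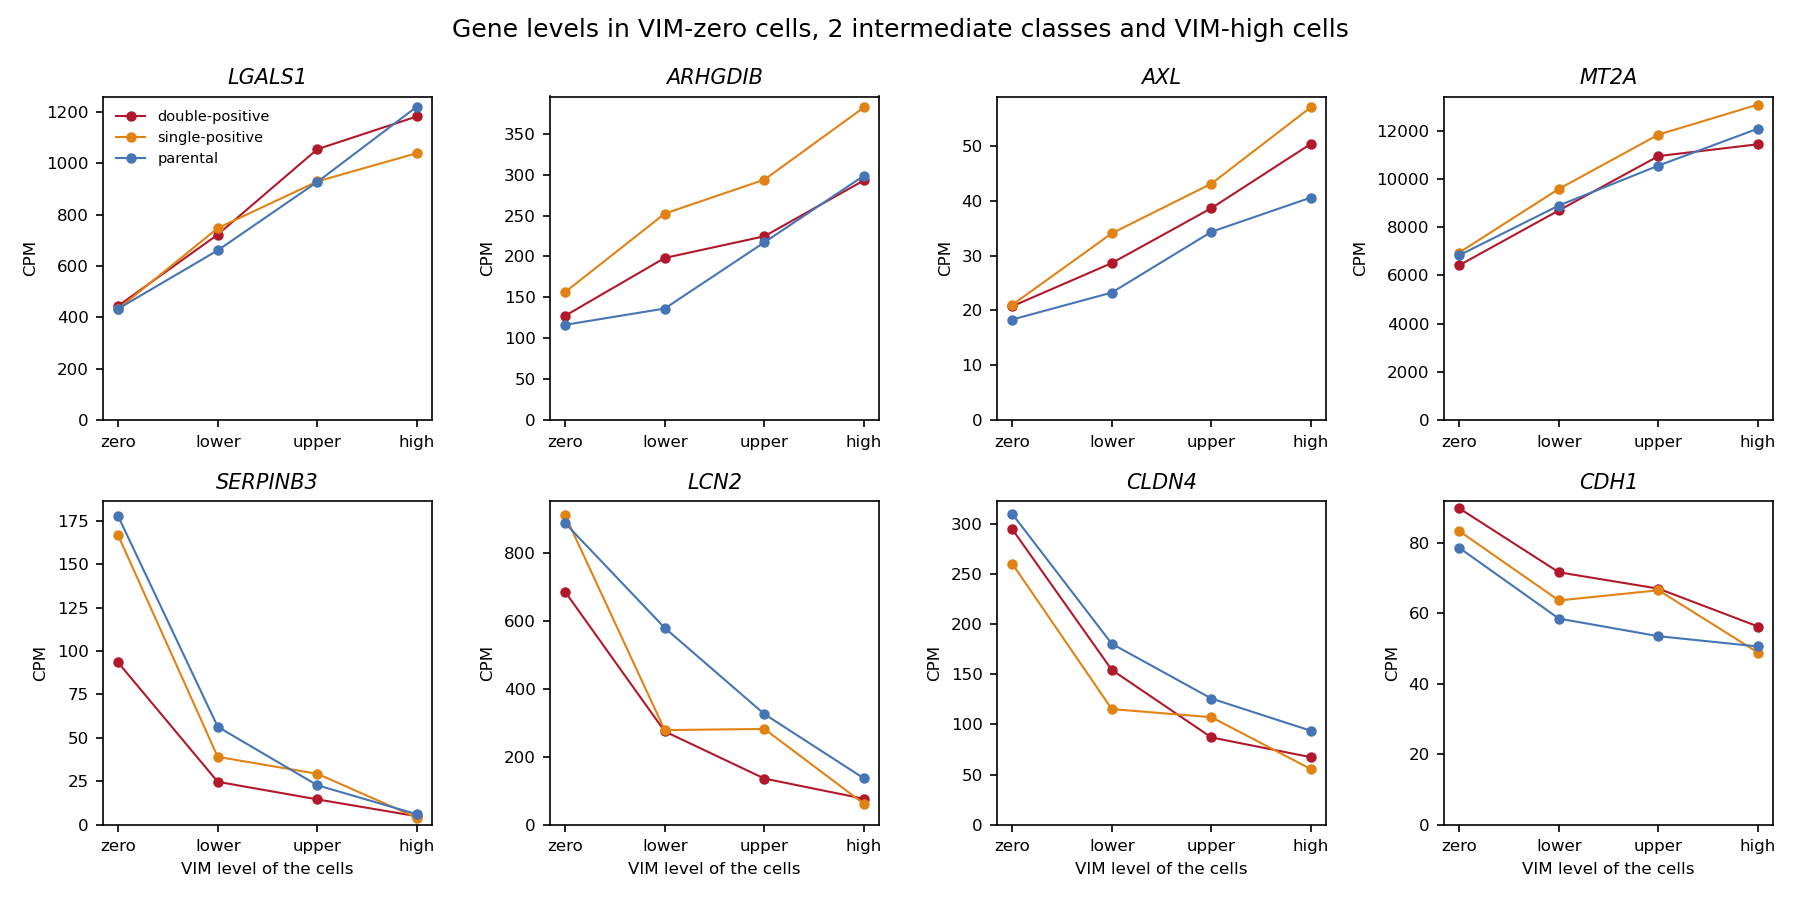
CPM of 8 genes in VIM-zero cells, in the cells between with a score under or from the median (lower and upper) and in VIM-high cells, for each library, each panel with its own axis from 0. The 4 genes of the upper row rise and the 4 of the lower row fall from VIM-zero to VIM-high cells in every library, with the largest part of the fall of SERPINB3 and LCN2 between the first classes.

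Across single cells thinned to 6500 UMIs, no gene followed VIM closely. Pearson's r with VIM was computed within each library (1940, 1291 and 2409 cells) for 1580 genes of at least 100 CPM and averaged over the libraries. The cells of a library share its preparation and depth setting, and r is a description here. LGALS1 had the highest mean at 0.27, followed by MT2A at 0.23, EMP3 at 0.21, ARHGDIB at 0.20 and LAPTM5, a lysosomal membrane protein, ANXA2, annexin A2, and PRSS23, a serine protease, at 0.18 each. MDK, the growth factor midkine, was lowest at -0.27, then FXYD3 at -0.26, AQP3, an aquaporin, at -0.25 and KRT13 and CTSD, cathepsin D, at -0.24. In all 51 genes exceeded 0.1 and 53 lay under -0.1.

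Genes set apart between libraries were a small share of those compared in VIM-high cells, but mostly more numerous than in VIM-zero cells. Counting genes 2-fold or more apart that reached 30 CPM on the higher side, 14 genes were higher (0.183% of 7654) and 26 lower (0.34%) in double-positive over single-positive VIM-high cells. In single-positive over parental VIM-high cells 16 genes were higher (0.209%) and 11 lower (0.144%), and in double-positive over parental VIM-high cells 5 were higher (0.0656%) and 16 lower (0.21%). In VIM-zero cells the same comparisons gave 1 higher and 6 lower, 1 and 1, and 9 and 5 genes. VIM-high sums held 2081458, 5040279 and 2018002 UMIs in the double-positive, single-positive and parental libraries, against 44731769, 28200904 and 43342423 in VIM-zero cells. The part of that size difference in these counts was not tested.

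PLAT, tissue plasminogen activator, had the highest ratio of double-positive over single-positive VIM-high cells, at 31.2 against 7.74 CPM. Several of the genes furthest apart, chosen after their values were seen, were interferon genes and chemokines of which single cells held most UMIs. IFNL1, an interferon lambda, had 0 UMIs in double-positive, 228 in single-positive and 0 in parental VIM-high cells, and 226 of the 228 came from 1 cell. That cell of 67525 UMIs also held 1683 of the 1903 OASL UMIs, 1225 of 1528 IFIT2 UMIs and 421 of 432 CCL5 UMIs of the single-positive VIM-high cells, along with 20 VIM UMIs. It also held 274 of the 400 UMIs of DDX58, the RNA sensor RIG-I, which was the 1 interferon response gene called higher (0.69 ± 0.23, edgeR adjusted p = 0.0485). DDX58 stood at 23.5, 79.4 and 32.7 CPM in double-positive, single-positive and parental VIM-high cells, against 28.6, 29.5 and 28.1 CPM in VIM-zero cells, and at 25.3 CPM in single-positive VIM-high cells without that cell. Without the single-positive library its log2 fold change was -0.031. In parental VIM-high cells 296 of the 367 UMIs of CXCL8, a neutrophil chemokine, came from 1 cell.

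Promoter sequence is shown for VIM itself, for EMP3, which rose with it, and for KRT4, which was nearly lost, to set side by side the bases around the start of genes that moved in opposite directions. The sequences are from RefSeq on GRCh38.p14 and run from 250 bases before to 50 bases after the start of the gene on its own strand, and capitals mark a GC box (GGGCGG, searched on both strands). They lie at chr10:17227991-17228290 on the plus strand, chr19:48325302-48325601 on the plus strand and chr12:52814067-52814366 on the minus strand.
VIM: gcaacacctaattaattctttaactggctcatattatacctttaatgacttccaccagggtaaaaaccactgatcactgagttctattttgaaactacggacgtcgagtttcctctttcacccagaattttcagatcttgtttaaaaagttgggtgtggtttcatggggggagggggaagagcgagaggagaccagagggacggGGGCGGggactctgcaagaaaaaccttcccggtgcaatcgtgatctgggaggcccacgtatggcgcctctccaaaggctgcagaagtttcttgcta
EMP3: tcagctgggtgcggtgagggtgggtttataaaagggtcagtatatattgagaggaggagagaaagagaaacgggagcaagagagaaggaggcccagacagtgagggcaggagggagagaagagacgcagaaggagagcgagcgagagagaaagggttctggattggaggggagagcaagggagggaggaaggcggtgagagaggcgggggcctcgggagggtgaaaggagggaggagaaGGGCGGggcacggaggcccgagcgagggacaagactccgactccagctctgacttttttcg
KRT4: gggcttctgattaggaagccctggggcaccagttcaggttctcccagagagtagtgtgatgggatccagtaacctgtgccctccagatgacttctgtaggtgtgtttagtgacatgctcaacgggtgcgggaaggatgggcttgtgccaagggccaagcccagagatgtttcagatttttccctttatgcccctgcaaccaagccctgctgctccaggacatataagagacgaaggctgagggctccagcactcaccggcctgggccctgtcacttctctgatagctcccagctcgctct
The VIM and EMP3 windows hold 1 GC box each and the KRT4 window holds none. GGGCGG is in 44.6% of all 27305 promoters, in 72.3% of the 6045 promoters found by symbol for genes tested, in 58.1% of 31 promoters of genes at least 2-fold higher and in 54.4% of 79 of genes at least 2-fold lower. TGANTCA, the AP-1 motif, is in 4.53% of promoters of genes tested, in 12.9% of those at least 2-fold higher and in 12.7% of those at least 2-fold lower, CACCTG, an E-box of the kind bound by ZEB and SNAI factors, in 17.5%, 29.03% and 29.1%, and GGAATG, the TEAD motif, in 10.7%, 19.4% and 13.9%. None of these 3 is in the windows shown. The genes that rose and the genes that fell held each motif at like shares, except that the shares for GGAATG lay further apart on these small numbers, and a match is only a run of letters.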

How the data were processed

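The deposited matrices hold counts of UMIs per gene and barcode, 33694 features and 737280 unfiltered barcodes per library, and the authors used Cell Ranger 4.0.0 and Seurat 4.0.6 with build GRCh38, per the submitters' processing notes. Cells were barcodes with at least 6500 UMIs, 500 genes and at most 20% mitochondrial UMIs. Counts were summed per library and class and tested with edgeR 4.0.16 (R 4.3.3): TMM scaling, genes averaging 10 CPM or more over 6 sums, the library as a block, Benjamini-Hochberg adjusted p of 0.05. Each SE was derived from the fold change and its F statistic. Shares have exact Clopper-Pearson intervals at 95%. Cells were thinned without replacement to 6500 UMIs with numpy 2.4.6, and phases were called with scanpy 1.11.5. Gene positions are from GENCODE 29.

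Genes were named by a rule: VIM, the 12 called genes of highest and of lowest fold with at least 30 CPM in the higher class and 1 direction in all libraries, up to 3 genes of each of 33 lists, a few fixed genes, and the 8 genes of highest correlation with VIM. One gene that the rule names is not reported here. Other list members and the lowest correlations are given as examples chosen after their values were seen. The members and lists were chosen with earlier results of these data known. On simulated counts for 7702 genes, all genes set 4-fold apart were called, 100% of those 2-fold higher, 94% of those 2-fold lower and 0.08% of unchanged genes. Alternatives changed the scaling, tool, filter, block, cell limits, depth and phase matching and the score limit.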

Additional observations from a re-analysis of the deposited data

Results flagged for a closer look

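Mitochondrial transcripts of complex IV went in different directions in the libraries. The log2 ratio of VIM-high over VIM-zero cells was -0.168 in double-positive, -0.366 in single-positive and 0.151 in parental cells for MT-CO2, and -0.0979, -0.295 and 0.315 for MT-CO1. The 95% counting intervals lie on opposite sides of 0 between the libraries, and the difference between libraries was not tested.

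HBG2, a fetal globin gene whose annotated span overlaps other transcripts, had a log2 ratio of -0.850 in double-positive and 0.457 in single-positive cells, from a level under 20 CPM in every class. This difference was not tested either.

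VIM was present in barcodes with 100 UMIs or fewer, which entered no comparison, at 33.2 CPM in the double-positive, 62.0 CPM in the single-positive and 65.8 CPM in the parental library.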

How the results depend on the processing

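Genes called higher and lower numbered 541 and 619 with DESeq2, 467 and 576 with VIM-zero cells matched on UMIs, 423 and 520 with cells matched on UMIs and phase, and 577 and 643 with the top 2% of cells, against 919 and 1007 as reported. Matching leaves fewer VIM-zero cells, so the tests differ in the number of cells. S phase genes and G2 and mitosis genes called higher numbered 3 and 16 when matched on UMIs and 1 and 1 when matched on UMIs and phase, against 21 and 19 as reported. Without a filter on low counts 1671 were lower. Leaving out 1 library gave 669 to 806 higher and 776 to 896 lower genes. No paired analysis was possible because, between the 3 libraries, the groups share only replicate number 1. The comparison of classes is itself paired by the library block, and without it 665 and 735 genes were called. Of 89 named genes that were called, 61 remained called in the same direction under all 18 alternatives. DDX58 alone reversed: its log2 fold change of 0.69 became -0.031 without the single-positive library (0.99 without the double-positive), -0.30 with the top 5% within each library, -0.64 with the top 2% and -0.13 without cells of 50000 UMIs or more. Thinning every cell moved the shares of VIM-high cells to 5.26%, 11.1% and 5.89%, and of VIM-zero cells to 87.7%, 75.0% and 84.8%, in double-positive, single-positive and parental cells. Without cells under 0.5% mitochondrial UMIs 73.3% of parental cells were VIM-zero. Where cells were chosen as high on 1 random set of their UMIs, VIM stood at 467, 438 and 357 CPM in the other set. Without cells under 15000 UMIs, an alternative chosen after seeing the data, the VIM-high shares were 3.73%, 10.3% and 3.42%. With 1 library per group no share has a replicate check.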
